A study of Mus musculus with 55 samples.

Results

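The subcortical maternal complex is an assembly of oocyte proteins that lies beneath the cell surface and is needed by the early embryo. The 6 genes described here encode its parts: Nlrp5 (the protein MATER), Ooep (FLOPED), Tle6, Padi6, Zbed3 and Nlrp2. They were chosen by name, and all 6 were found in both count tables, among 33924 genes of the first table and 37310 features of the second. RNA sequencing counts came from 26 mouse oocyte libraries of a series of 55 samples, and 24 were used. Total counts in these 24 ran from 7452742 to 65444652, and 2 libraries with 127927 and 129192 counts (rhau_sko replicate 6 and c_DRB replicate 4) were left out.

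The libraries formed 4 experiments that share no library. The first set 3 control libraries against 3 labelled Dhx36_sko. The second held c (2 libraries), c_DRB (1), rhau_sko (1) and rhau_sko_DRB (2), where DRB is an inhibitor of the kinase CDK9 and so of transcription elongation. The third set 3 libraries labelled GV-C against 3 labelled GV-cPDS-12h, where GV is the germinal vesicle stage, cPDS (carboxypyridostatin) binds G-quadruplexes in RNA, and the titles add 12 h. The fourth set 3 Dhx36 3 h control libraries against 3 Dhx36 3 h Trim21 libraries, where TRIM21 is a ubiquitin ligase used to degrade an antibody-bound protein. The helicase DHX36, or RHAU, opens G-quadruplexes, stacked structures that guanine-rich RNA or DNA can form. The labels give the sko mice as Dhx36fl/fl;SKO, with floxed Dhx36 alleles, but do not expand sko, name the promoter that drives the deletion, give the genotype of the controls beyond that word, or state an age or a DRB or cPDS dose. Their protocol speaks of growing oocytes for every library, and the first experiment, whose titles give no stage, is called the growing experiment here. How many oocytes or mice stand behind a library is not stated either, so p-values measure the spread between libraries, which may be technical. Counts are relative, so a change in the number of oocytes or in the total RNA of an oocyte cannot be seen in them.

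In oocytes, MATER, FLOPED and TLE6 form the core of the complex, and FILIA, encoded by Khdc3, joins it. MATER and NLRP2 are NLR proteins, FLOPED and FILIA carry KH-type folds known from RNA-binding proteins, and TLE6 belongs to the Groucho family of corepressors. PADI6 is a peptidylarginine deiminase relative required for the cytoplasmic lattices that store maternal proteins, and ZBED3 is a zinc finger protein that acts with the complex in placing the spindle. The transcripts are made while the oocyte grows and are kept for the egg and the first divisions, and mouse embryos from females that lack Nlrp5, Ooep, Tle6 or Padi6 are known to arrest early.

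FIGLA, a basic helix-loop-helix factor of oocytes, binds E-boxes, and G-quadruplexes are the substrate of DHX36, so the start regions of the members were searched for both. RefSeq start regions (GRCm38.p6) matched all 6 members and Khdc3, in 11 windows of the 250 bases before a start site. The windows of Ooep, Nlrp5, Padi6 and Zbed3 are shown as examples that hold an E-box and lie before the outermost start site of the gene. Those of Tle6 lie within its gene record, and that of Nlrp2 holds no E-box. Each is read 5′ to 3′ on the strand of its gene, with every E-box (CANNTG) in capitals.
Ooep (chr9:78378589-78378838, minus strand): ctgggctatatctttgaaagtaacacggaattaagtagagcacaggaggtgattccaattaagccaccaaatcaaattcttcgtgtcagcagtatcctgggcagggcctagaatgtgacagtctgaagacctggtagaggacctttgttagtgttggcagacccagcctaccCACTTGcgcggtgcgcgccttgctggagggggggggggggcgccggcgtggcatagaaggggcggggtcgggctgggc
Nlrp5 (chr7:23385639-23385888, plus strand): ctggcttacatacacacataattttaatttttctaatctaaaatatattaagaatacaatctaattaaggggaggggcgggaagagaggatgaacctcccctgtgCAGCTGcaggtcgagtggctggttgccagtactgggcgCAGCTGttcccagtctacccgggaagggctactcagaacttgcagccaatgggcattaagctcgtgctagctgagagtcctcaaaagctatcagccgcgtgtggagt
Padi6 (chr4:140742644-140742893, minus strand): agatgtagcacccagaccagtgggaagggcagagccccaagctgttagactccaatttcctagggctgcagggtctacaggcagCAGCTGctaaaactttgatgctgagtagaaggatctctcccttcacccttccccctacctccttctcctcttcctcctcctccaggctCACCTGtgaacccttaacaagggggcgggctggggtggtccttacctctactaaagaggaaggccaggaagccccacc
Zbed3 (chr13:95323355-95323604, plus strand): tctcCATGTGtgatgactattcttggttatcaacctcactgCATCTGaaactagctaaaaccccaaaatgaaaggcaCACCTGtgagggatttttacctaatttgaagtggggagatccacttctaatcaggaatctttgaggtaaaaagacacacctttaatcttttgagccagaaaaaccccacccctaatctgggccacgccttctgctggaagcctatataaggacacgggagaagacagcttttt
At least 1 E-box stood in 10 of the 11 windows, against 66.2% of 32851 mouse windows of this length, and Nlrp2 held none. Some genes have several windows, and by gene it was 6 of 7, Khdc3 included, against 69.3% of 27025 genes. A G-quadruplex consensus, here 4 runs of at least 3 G with 1 to 7 bases between them on either strand, was found in 1 of the 11 windows and in 16.7% of all windows. This was the window of Ooep, whose own strand carries GGGGCGGGGTCGGGCTGGG from 20 to 2 bases before the start site (chr9:78378590-78378608, minus strand), overlapping a GC box (GGGCGG). The GC box occurred in 4 of the 11 windows (32.7% of all windows) and CCAAT in 7 of the 11 (33.8%), counting both strands. By gene it was 4 of 7 for the GC box (35.4% of all genes) and 7 of 7 for CCAAT (37.5%). These are matches of letters in DNA upstream of the transcript, not measured sites.

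The members lie on 5 chromosomes (mm9, the build of the files): Nlrp5 on chromosome 7 (24170908 to 24226941, plus strand) and Nlrp2 on chromosome 7 (5250156 to 5302637, minus strand). Ooep lies on chromosome 9 (78223916 to 78226532, minus), Tle6 on chromosome 10 (81053649 to 81063818, minus), Padi6 on chromosome 4 (140283270 to 140298558, minus) and Zbed3 on chromosome 13 (96095192 to 96107796, plus). Nlrp2 overlaps Gm5065 on the other strand, Zbed3 the small RNA gene Snora47 and Nlrp5 AC159288.1, and in each pair the annotated exons share 0 bases. Counts per member and library ran from 2326, for Nlrp2 in Trim21 replicate 2, to 336394, for Zbed3 in growing sko replicate 4.

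Per kilobase of exon, Zbed3 was the most abundant member in all 8 groups of the first table and Nlrp2 the least abundant in all 10 groups. In growing controls Zbed3 stood at 4148 ± 559.8 CPM (counts scaled to a common library total) per kilobase (mean ± SD, n = 3 here and for the values that follow), ahead of Ooep at 2736 ± 418 and Padi6 at 1835 ± 461. Tle6 followed at 970.2 ± 192, Nlrp5 at 334 ± 66.5 and Nlrp2 at 171 ± 18.6. No neighbours in that order overlapped between libraries. In GV_C the order was Zbed3 (1479 ± 110.3 CPM per kilobase), Padi6 (998 ± 139.8), Ooep (775 ± 95.1), Tle6 (526 ± 94.9), Nlrp5 (495 ± 62.6) and Nlrp2 (206 ± 24.4). There Padi6 overlapped Ooep, and Tle6 overlapped Nlrp5. In Trim controls Ooep (1003 ± 122 CPM per kilobase) and Zbed3 (973 ± 96.0) overlapped at the top. In the 2 c libraries Zbed3 stood at 1041 CPM per kilobase and Ooep at 578, above Padi6 (502) and Nlrp5 (416), which overlapped, and Tle6 (177) and Nlrp2 (98.7) were lowest. The 6 transcripts together took 2.13% to 2.62% of all counts in growing controls, 1.01% to 1.19% in GV_C, 0.649% to 0.724% in c and 0.614% to 0.711% in Trim controls.

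**Figure D1:**
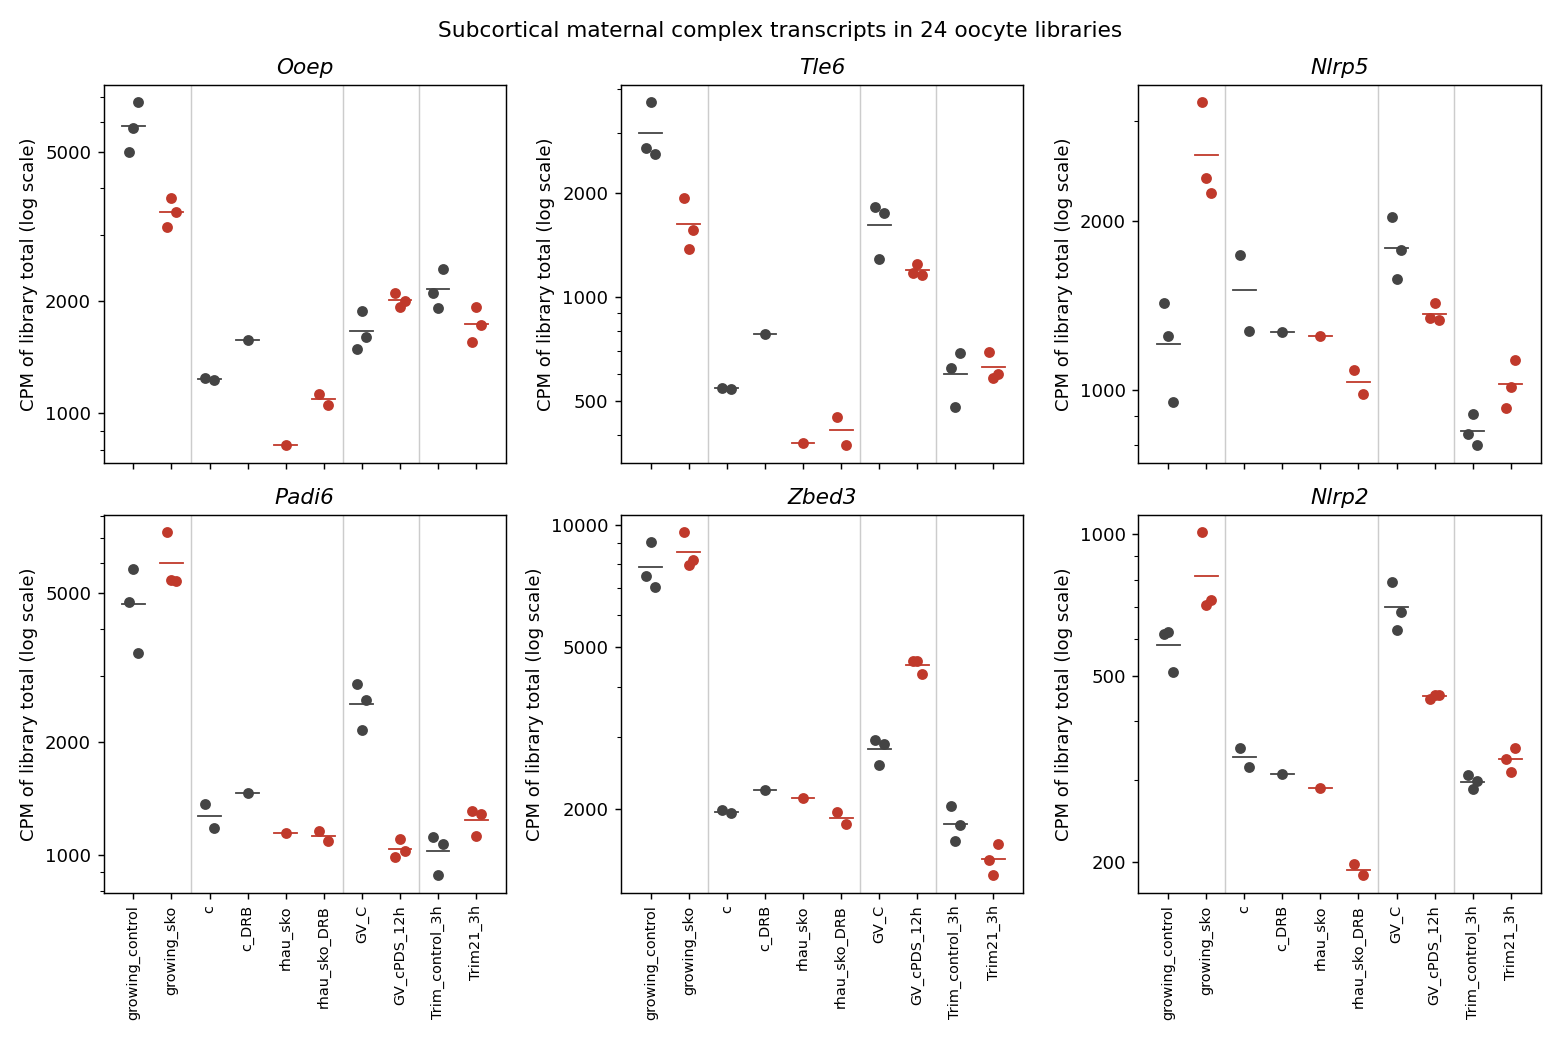
Level of each member in the 24 libraries, as CPM of the library total on a log scale, by group along the horizontal axis; points are libraries, short lines group means, dark grey the control and c groups and red the sko, cPDS and Trim21 groups, and thin vertical lines separate the 4 experiments. Growing libraries hold the highest Ooep, Padi6 and Zbed3, with Ooep at 4996 to 6779 CPM in controls and 3138 to 3768 CPM in sko.

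The first comparison asks how these transcripts differ where Dhx36 is lower in growing oocytes. Dhx36 itself had 7.34 to 10.9 normalised CPM among controls, and among sko libraries 1.73 to 2.83 (log2 fold change -2.01 ± 0.24, SE; normalised CPM rest on TMM-scaled library sizes of the experiment). Of the 6 members, Ooep and Tle6 fell and Nlrp5 rose, while Padi6, Zbed3 and Nlrp2 did not pass the test. Across all 14081 genes tested, 28.5% were called higher and 25.2% lower, together 53.7%, so 1 higher and 2 lower of 6 members is a share near that of any genes. The median log2 fold change was 0.05 over the members and 0.02 over all genes. Higher genes made up 53.1% of the calls, or 66.9% with library size alone, which also put the all-gene median at 0.21.

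Ooep, the FLOPED gene, read 5685, 6138 and 6825 normalised CPM in control replicates 1 to 3 and 2938, 3588 and 3192 in sko replicates 4 to 6. Every sko library was below every control. Its log2 fold change was -0.94 ± 0.13 (SE; edgeR quasi-likelihood adjusted p = 2.18e-05). Tle6 read 3073, 3911 and 2628 normalised CPM in controls and 1819, 1316 and 1450.2 in sko libraries, again without overlap, a log2 fold change of -1.07 ± 0.16 (SE; edgeR adjusted p = 4.31e-05). Nlrp5, the MATER gene and partner of both products in the core, moved the other way. It read 1626, 1330.0 and 959 normalised CPM in controls and 3036, 2262 and 2067 in sko libraries, with every sko library above every control. Its log2 fold change was 0.91 ± 0.18 (SE; edgeR adjusted p = 5.40e-04).

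The ratio of Nlrp5 to Ooep counts does not depend on library scaling. Control libraries held 28.6, 21.7 and 14.05 Nlrp5 counts per 100 Ooep counts, and sko libraries held 103, 63.0 and 64.8. The groups did not overlap, which follows from the separation of both genes given above, so the ratio is not a further test. All 6 members together took 2.15% to 2.62% of counts in sko libraries, beside 2.13% to 2.62% in controls.

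Padi6 read 3471 to 6147 normalised CPM in controls and 4949 to 6779 in sko libraries (log2 fold change 0.17 ± 0.18, SE). Zbed3 read 7089 to 9630.2 and 7579.8 to 8980.3 (-0.06 ± 0.14), and Nlrp2 read 512 to 699 and 669.6 to 947 (0.29 ± 0.16). All 3 overlapped between groups, with edgeR adjusted p = 0.449, 0.732 and 0.126. Nlrp2 was called with library size alone (0.49, edgeR adjusted p = 0.00955).

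Khdc3, listed as 2410004A20Rik in the files, fell with Ooep and Tle6. It read 673, 576 and 561 normalised CPM in controls and 272, 309.96 and 281 in sko libraries (log2 fold change -1.07 ± 0.12, SE; edgeR adjusted p = 3.08e-06). Of the 6 measured genes on a list of partners and lattice proteins, 2 were lower and none higher. The other was Uhrf1, an adaptor of DNA methylation held in the oocyte cytoplasm, at -0.37 ± 0.14 (edgeR adjusted p = 0.0322), a call lost with library size alone (-0.19, adjusted p = 0.297) and without control replicate 2 or 3 or sko replicate 4 or 5. Nlrp4f, Nlrp14, Ube2d3 and Cfl1 were at 0.14, 0.11, -0.04 and 0.01. Among 22 other maternal effect genes, 15 were lower and 1 higher (11 and 2 with library size alone). The smallest p-values were those of Zar1, a regulator of stored maternal mRNA (-1.95 ± 0.14), and the E-cadherin gene Cdh1 (-1.39 ± 0.15).

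Among oocyte markers, 3 of 9 were lower and 2 higher (2 and 4 with library size alone), and the germ cell helicase gene Ddx4 rose by 1.81 ± 0.16. A list of 13 granulosa and cumulus cell markers took 0.00171% to 0.00202% of counts in controls and 0.00702% to 0.00749% in sko libraries. Of the 7 tested, 3 were higher and none lower. Fshr had 9 to 16 counts in controls and 1314 to 1466 in sko libraries, and Cyp19a1 244 to 417 and 716 to 813. Of the same list, Amh and Foxl2 had at most 6 counts in any of these libraries, and Ptx3 had 0. Tested but not called were Inha (log2 fold change -0.65), Hsd17b1 (-0.93), Inhba (0.80) and Has2 (0.42). Theca and stroma markers took 0.000263% to 0.000323% of counts in controls and 0.000496% to 0.000866% in sko libraries, with 2 of 3 tested genes higher. Immune, endothelial and blood markers took 0.00110% to 0.00131% and 0.000907% to 0.00119%. Of the 3 tested, Ptprc was called higher, by a log2 fold change of 8.73 ± 1.01 (SE). The other 2 were called lower, Pecam1 (-0.59 ± 0.16) among them. The part of these markers in the members' values was not tested.

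**Figure D2:**
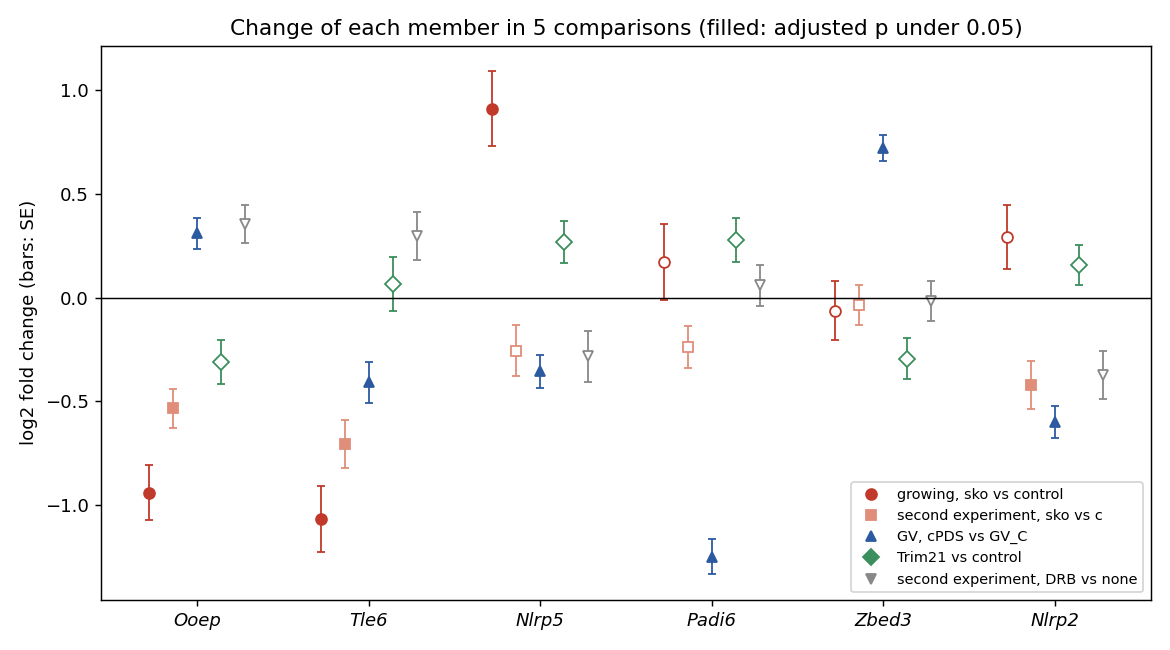
Log2 fold change of each member (vertical axis; bars are SE) in 5 comparisons, with filled symbols where the edgeR adjusted p is under 0.05 and open symbols where it is not. Ooep and Tle6 lie below 0 in both sko comparisons, Nlrp5 is at 0.91 in the growing and -0.26 in the second, and after cPDS Padi6 is at -1.25 and Zbed3 at 0.72.

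The second experiment puts the same question to other libraries, 3 c against 3 sko, with DRB as a term because 1 c library and 2 sko libraries had received it. Dhx36 was at 38.0 to 47.2 normalised CPM in c and 4.46 to 7.66 in sko libraries. Ooep, Tle6 and Nlrp2 fell, and no member rose, beside 16.8% of all 16784 genes called lower, 19.2% higher and 36% in all. The members' median log2 fold change was -0.34, against 0.01 over all genes.

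Ooep read 1251 and 1237 normalised CPM in c replicates 1 and 2 and 1527 in c_DRB replicate 3. It read 824 in rhau_sko replicate 5 and 1136 and 1062 in rhau_sko_DRB replicates 7 and 8, all below every c library (log2 fold change -0.53 ± 0.09, SE; edgeR adjusted p = 0.00122). Tle6 read 551, 547 and 759.7 in the 3 c libraries and 379, 453 and 376 in the 3 sko libraries, also without overlap (-0.70 ± 0.12, SE; edgeR adjusted p = 8.73e-04). Khdc3 was again below, at 279, 311 and 408 against 203, 242 and 243 normalised CPM (-0.65 ± 0.10, SE; edgeR adjusted p = 7.99e-04). When the 2 shallow libraries were added, the calls of Ooep (-0.40, edgeR adjusted p = 0.114), Tle6 (-0.49, 0.0965) and Khdc3 (-0.34, 0.283) were lost.

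Nlrp2 read 353, 322 and 299 normalised CPM in the c libraries and 289.7, 199.9 and 189 in the sko libraries (-0.42 ± 0.11, SE; edgeR adjusted p = 0.0152). Its lowest values were the 2 sko libraries with DRB. Its call was lost without c_DRB replicate 3 (-0.23, adjusted p = 0.267) and within the libraries without DRB (-0.23, adjusted p = 0.272). Nlrp5 read 1748, 1286 and 1231 in c and 1253, 1094 and 993 in sko libraries, which overlapped (-0.26 ± 0.12, edgeR adjusted p = 0.127). Nlrp5 counts per 100 Ooep counts were 139.7, 103.9 and 80.6 in c and 152.0, 96.3 and 93.6 in sko libraries. These ratios overlapped too, unlike those of the growing experiment. Padi6 read 1374, 1187 and 1416 in c and 1152, 1165 and 1097 in sko libraries (-0.24 ± 0.10, edgeR adjusted p = 0.0845); the sko libraries lay just below. Zbed3 read 1969 to 2165 and 1852 to 2134, which overlapped (-0.04 ± 0.10, edgeR adjusted p = 0.804). Without a filter on low counts, 5 members were called, with Nlrp5 (-0.29, adjusted p = 0.0318) and Padi6 (-0.27, adjusted p = 0.0457) added.

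Of the 6 measured partners, Nlrp14, a maternal NLR gene, was the other called lower (-0.35 ± 0.09, edgeR adjusted p = 0.0111), and none was higher. Its call was lost without c replicate 1 (-0.33, adjusted p = 0.0529) or c_DRB replicate 3 (-0.29, 0.105), within the libraries without DRB (-0.29, 0.0991) and with the shallow libraries added (-0.34, 0.0757). Of the 22 other maternal effect genes 13 were lower and 1 higher, with the smallest p-values for Bnc1, a zinc finger gene (-1.17 ± 0.13), and Eif2c2, the Argonaute 2 gene (-1.45 ± 0.17). Of 9 oocyte markers 6 were lower and 1 higher. The smallest p-values among them were those of the zona pellucida genes Zp3 (-1.09 ± 0.10) and Zp1 (-1.19 ± 0.12). Granulosa markers took 0.00584% to 0.00681% of counts in c libraries and 0.0105% to 0.0143% in sko libraries. Of the 8 tested, 4 were higher and none lower. Fshr had 12 to 100 counts in c and c_DRB libraries and 366 to 982 in sko libraries. Amh had 0 counts and Foxl2 at most 6. Tested but not called were Inhba (0.57), Inhbb (1.97), Fst (-1.91) and Cyp11a1 (-1.17). Theca and stroma markers took 0.000322% to 0.000486% of counts in c and c_DRB libraries and 0.000619% to 0.000981% in sko libraries, with Dcn called higher (2.18 ± 0.33) of 3 tested. Immune, endothelial and blood markers took 0.00410% to 0.00487% and 0.00238% to 0.00333%. Of the 4 tested, Ptprc was higher (6.45 ± 0.73), and 2 were lower, Pecam1 (-0.86 ± 0.15) among them. The part of these markers in the members' values was not tested.

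The change in sko libraries was then compared between the experiments in 1 fit of 12 libraries. Nlrp5 and Nlrp2 differed, beside 12.5% of 17437 genes (7.63% lower and 4.91% higher in the second experiment). Higher genes made up 39.2% of these calls, or 17.4% with library size alone, where the same number of members, 2, was called. For Nlrp5 the sko change of the second experiment was lower than that of the growing experiment (log2 difference -1.20 ± 0.25, SE; edgeR adjusted p = 0.00405). For Nlrp2 the difference was -0.74 ± 0.22 (SE; edgeR adjusted p = 0.0303). It did not pass when any 1 of 8 libraries was left out (growing control replicates 2 and 3, growing sko 4, 5 and 6, c_DRB 3, rhau_sko_DRB 7 and 8; adjusted p = 0.0522 to 0.252), or without the DRB libraries (-0.52, adjusted p = 0.255). The differences of Ooep (0.38 ± 0.16), Tle6 (0.33 ± 0.22), Padi6 (-0.44 ± 0.24), Zbed3 (0.00 ± 0.18) and Khdc3 (0.39 ± 0.17) did not pass. DESeq2 called those of Ooep (0.48, adjusted p = 0.0121) and Khdc3 (0.50, adjusted p = 0.0206). edgeR called that of Ooep without growing control replicate 1 (0.53, adjusted p = 0.0193) or growing sko replicate 5 (0.56, adjusted p = 0.0390), and that of Khdc3 without growing control replicate 3 (0.56, adjusted p = 0.0281). The labels do not say how the oocytes of the 2 experiments differed, so stage, handling and experiment cannot be told apart.

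**Figure D3:**
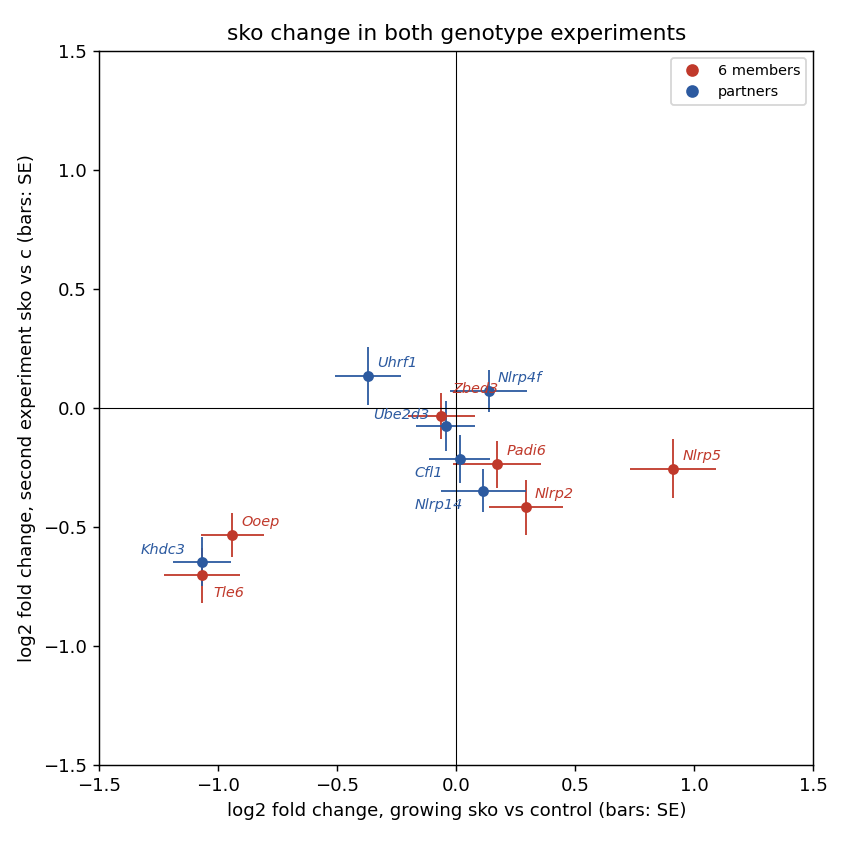
Log2 fold change of sko against control in the growing experiment (horizontal axis) and the second experiment (vertical axis) for the 6 members in red and 6 partner or lattice genes in blue, with SE bars on both axes. Ooep, Tle6 and Khdc3 lie together at the lower left (-0.94, -1.07 and -1.07 across, -0.53, -0.70 and -0.65 down), while Nlrp5 lies alone at the right.

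DRB itself, in the same 6 libraries of the second experiment, gave no called member by edgeR, where 2 of 16784 genes (0.0119%) were called, 0.00596% in each direction. At an unadjusted p under 0.05 there were 4 members, beside 12.5% of all genes. DESeq2 called 2: Ooep (0.35, DESeq2 adjusted p = 0.0101) and Nlrp2 (-0.38, DESeq2 adjusted p = 0.0440). It also called Khdc3 (0.36, DESeq2 adjusted p = 0.0303). In edgeR, Ooep was at 0.36 ± 0.09, Tle6 at 0.30 ± 0.12, Nlrp2 at -0.37 ± 0.11 and Nlrp5 at -0.28 ± 0.12, with adjusted p = 0.186, 0.318, 0.226 and 0.382. Padi6 (0.06) and Zbed3 (-0.01) were nearest to 0. The interaction of genotype and DRB was called for no member by edgeR, with 6 of 18178 genes called (0.033%). Its largest value was that of Nlrp2 (-0.43 ± 0.19, edgeR adjusted p = 0.599), the only member with an unadjusted p (0.0470) under 0.05, beside 8.21% of all genes. The fit had 1 library each for c_DRB and rhau_sko.

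The cPDS comparison sets GV libraries titled cPDS 12 h against GV_C libraries, whose titles give no time. The G-quadruplex ligand and the 12 h therefore cannot be told apart. All 6 members changed, 4 down and 2 up, beside 27.4% of 16115 genes called lower, 23.4% higher and 50.8% in all. Their median log2 fold change was -0.38, against 0.01 over all genes. Zbed3 and Ooep rose, and Padi6, Nlrp2, Tle6 and Nlrp5 fell.

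Padi6 fell most. It read 2833, 2125 and 2541 normalised CPM in GV_C and 989.9, 1121 and 1046 in the cPDS libraries (log2 fold change -1.25 ± 0.09, SE; edgeR adjusted p = 1.01e-08). Each cPDS library was below each control. Zbed3 rose, from 2938, 2535 and 2839 to 4651, 4688 and 4370.2 normalised CPM (0.72 ± 0.06, SE; edgeR adjusted p = 1.06e-07), also without overlap. In counts, GV_C libraries held 104, 119 and 112 Zbed3 counts per 100 Padi6 counts and cPDS libraries 469.9, 418 and 418. This ratio restates the changes of both genes.

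Among the core genes, Ooep rose while Nlrp5 and Tle6 fell. Ooep read 1478, 1861 and 1574 normalised CPM in GV_C and 2104, 1949 and 2041 after cPDS (0.31 ± 0.07, SE; edgeR adjusted p = 0.00257). Nlrp5 read 2015, 1557 and 1744 against 1349, 1447 and 1358 (-0.36 ± 0.08, SE; edgeR adjusted p = 0.00132). Tle6 read 1819, 1274 and 1726 against 1183, 1269 and 1181 (-0.41 ± 0.10, SE; edgeR adjusted p = 0.00271). In Tle6 the groups only just parted, at 1269 and 1274. Nlrp2 fell from 785, 620.0 and 673 to 447, 462 and 463 (-0.60 ± 0.08, SE; edgeR adjusted p = 9.82e-06).

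Khdc3 rose with Ooep, from 406, 393 and 429 to 677, 593 and 588 normalised CPM (0.60 ± 0.07, SE; edgeR adjusted p = 3.10e-06). Among the 6 measured partners 5 rose and 1 fell. Ube2d3, a ubiquitin-conjugating enzyme gene, was at 0.68 ± 0.07, Nlrp4f, another maternal NLR gene, at 0.59 ± 0.06 and Nlrp14 at 0.34 ± 0.06. Cfl1, the cofilin gene of actin turnover, fell by 0.75 (SE 0.08). Uhrf1 was called at 0.20 ± 0.07 (edgeR adjusted p = 0.0233) but not without GV_C replicate 1 or 3, without cPDS replicate 2 or 3, or with library size alone (edgeR adjusted p = 0.0506 to 0.110).

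Other maternal effect genes split evenly, 8 higher and 8 lower of 22. H1foo, the oocyte linker histone gene, fell by 2.22 (SE 0.06) and Zar1 by 1.39 (SE 0.06). Oocyte markers had 7 higher and 2 lower of 9, with Dazl, a translation regulator of germ cells, at 1.09 ± 0.06 and Ddx4 at -1.25 ± 0.10. Granulosa markers took 0.0103% to 0.0107% of counts in GV_C and 0.00810% to 0.00933% after cPDS, with Ptx3 at 0 and Amh and Foxl2 at most 4 counts. Of the 10 tested, Nr5a2 was higher and 2 were lower, Cyp19a1 among them. The call of Nr5a2 was lost without GV_C replicate 1 or 3 or cPDS replicate 2 (edgeR adjusted p = 0.0711 to 0.0837). Theca and stroma markers took 0.000388% to 0.000436% and 0.000392% to 0.000733%, with Dcn higher of 4 tested. Immune, endothelial and blood markers took 0.00559% to 0.00599% and 0.00152% to 0.00161%, with Pecam1 lower (-2.03 ± 0.09). Their part in the members' values was not tested. Dhx36 rose by 0.73 (SE 0.10).

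**Figure D4:**
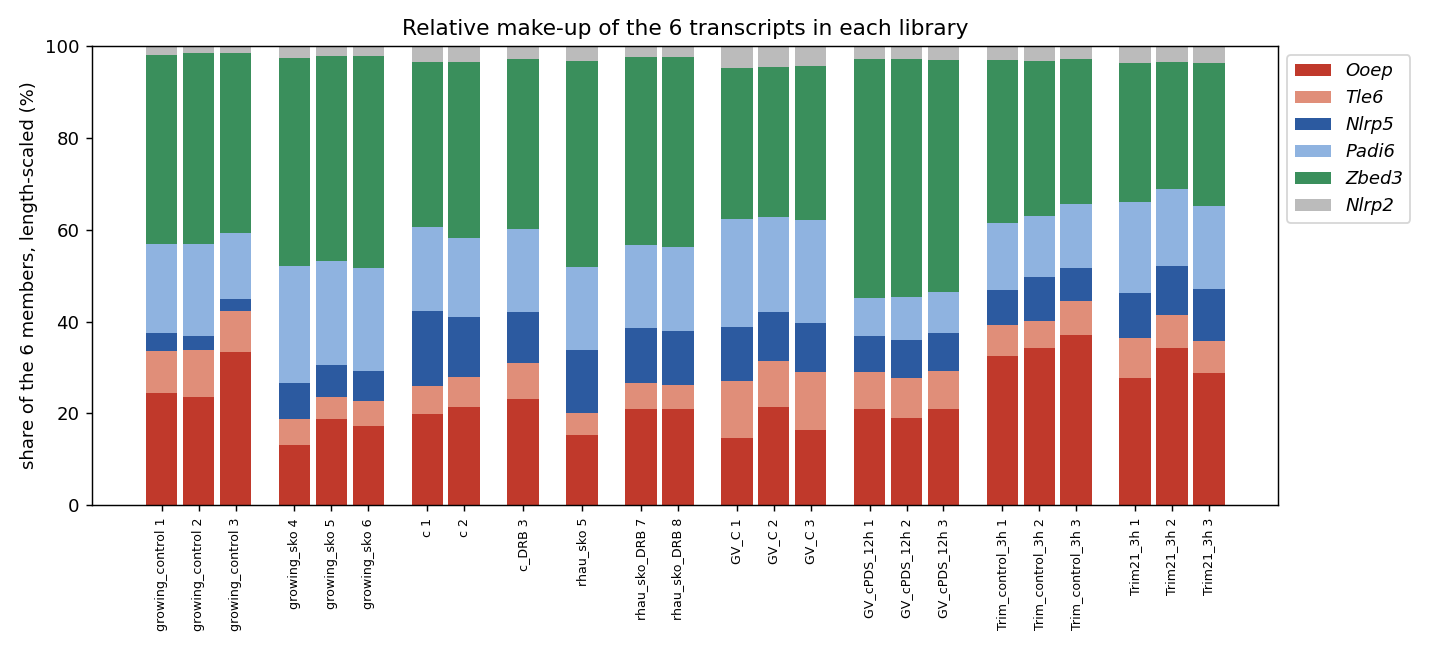
Share of each member in the 6 transcripts of a library, in percent, after scaling counts by exon length; each bar is 1 library and each colour 1 gene. Zbed3 takes 50.5% to 52.1% in the cPDS libraries against 32.7% to 33.5% in GV_C, Padi6 8.29% to 9.27% against 20.6% to 23.6%, and Nlrp5 6.57% to 7.98% in growing sko libraries against 2.77% to 4.11% in growing controls.

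The Trim21 comparison asks what follows within 3 h when the antibody-binding ligase is supplied, in an experiment whose titles name Dhx36. Trim21 RNA was at 7620.1 to 9309.9 normalised CPM in its libraries and 14.6 to 14.8 in controls, and Dhx36 RNA at 6.23 to 8.77 against 29.6 to 32.0. These counts do not give protein levels, and the reason for the lower Dhx36 RNA was not tested. No member was called by edgeR, where 11.5% of 14191 genes were (6.26% higher and 5.23% lower), and none by DESeq2. At an unadjusted p under 0.05 there were 4, beside 24.7% of all genes. Zbed3 was at -0.29 ± 0.10 (SE; edgeR adjusted p = 0.0757), Ooep at -0.31 ± 0.11 (0.0813), Nlrp5 at 0.27 ± 0.10 (0.116) and Padi6 at 0.28 ± 0.11 (0.119). Nlrp2 was at 0.16 ± 0.10 and Tle6 at 0.07 ± 0.13.

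Ooep and Nlrp5, not called, were parted by small gaps. Ooep read 2079, 1959 and 2399 normalised CPM in controls and 1586, 1918 and 1689.8 in Trim21 libraries. Nlrp5 read 828, 934 and 791 against 954, 1011 and 1110.04. Every Trim21 library was below every control for Ooep and above for Nlrp5. The share of all genes whose groups part in this way was not computed, here or in the other comparisons. These separations, and the count ratios that restate them, are therefore description only. Nlrp5 counts per 100 Ooep counts were 39.8, 47.7 and 33.0 in controls and 60.1, 52.7 and 65.7 in Trim21 libraries. Zbed3 read 2009, 1713 and 1808 in controls and 1531, 1369.8 and 1608 in Trim21 libraries, all lower. Padi6 read 1101, 905 and 1062 against 1339.6, 1122 and 1260.5, all higher. Tle6 read 496 to 684 and 584 to 710.3, which overlapped, and Nlrp2 294 to 303 and 311 to 344. Library by library, Zbed3 counts per 100 Padi6 counts were 182, 189 and 170.3 in controls and 114, 122 and 128 in Trim21 libraries. Without control replicate 2, edgeR called 3 members: Ooep (-0.38, adjusted p = 0.0254), Zbed3 (-0.35, adjusted p = 0.0286) and Nlrp5 (0.33, adjusted p = 0.0346). Without a filter on low counts it called Ooep (-0.32, adjusted p = 0.0214) and Zbed3 (-0.31, adjusted p = 0.0359).

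Khdc3 was called lower (log2 fold change -0.53 ± 0.16, SE; edgeR adjusted p = 0.0492), from 702, 551 and 894 to 526, 427 and 535 normalised CPM. That call was lost with library size alone (adjusted p = 0.0552) and without any 1 library but control replicate 2 (adjusted p = 0.0827 to 0.215). Nlrp14 rose by 0.34 (SE 0.08; edgeR adjusted p = 0.0229), a call lost without control replicate 1 or 3 or Trim21 replicate 1 or 3 (adjusted p = 0.0668 to 0.0940). Granulosa markers took 0.00432% to 0.00450% of counts in controls and 0.00652% to 0.00702% in Trim21 libraries, with Amh and Foxl2 at 0. Cyp19a1 was the 1 called higher of 4 tested. Its part in the members' values was not tested.

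GV_C was also set against growing control, as a description of these libraries, since stage, as far as the titles give it, and experiment changed together and cannot be told apart. Ooep was lower in GV_C by 2.74 on the log2 scale (SE 0.14), Zbed3 by 2.42 (SE 0.14), Padi6 by 1.82 (SE 0.19), Tle6 by 1.81 (SE 0.17) and Nlrp2 by 0.67 (SE 0.14). These 5 were called lower by edgeR, beside 28.2% of 15355 genes (32.5% higher, 60.7% called either way). Nlrp5, at -0.38 ± 0.17, was not (edgeR adjusted p = 0.0656), and it was with DESeq2 (-0.42, DESeq2 adjusted p = 0.0313), without a filter (-0.31, adjusted p = 0.0354) or without growing control replicate 3 (-0.58, adjusted p = 0.00105).

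Library scaling decides part of that comparison. The all-gene median was 0.09 with TMM and 1.01 with library size alone, and higher genes made up 53.6% and 90% of the calls. Nlrp5 (0.57, edgeR adjusted p = 0.00318) and Nlrp2 (0.27, edgeR adjusted p = 0.0484) were then higher in GV_C, while the other 4 remained lower. In the scaling-free count ratio, growing controls held 14.05 to 28.6 Nlrp5 counts per 100 Ooep counts and GV_C held 83.7 to 136. All 6 measured partners were lower in GV_C, or 5 with library size alone, where Nlrp4f stood at 0.06.

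Across the 18 deep libraries of the first table, the members' log2 CPM correlated with each other at Pearson r of 0.712 (Nlrp5 and Ooep) to 0.955 (Ooep and Zbed3), as a description over libraries that share experiments and scaling. Among the 5826 genes whose log2 CPM averaged 4 or more, those most like each member were Eif1ax, Med28 and Naca for Ooep (0.995 to 0.993) and Stoml2, 1810043G02Rik and Ranbp3 for Tle6 (0.991 to 0.988). For Padi6 they were Anxa7, Tuba4a and Birc3 (0.993 to 0.985), for Zbed3 Ube2d3, Tcl1b1 and Cnih (0.993 to 0.991), for Nlrp2 Wee2, Cdc42se2 and Plk1 (0.986 to 0.982), and for Nlrp5 Pttg1ip, Traip and Stk32b (0.959 to 0.947). No member was among the 3 most like genes of another, and the nearest was Nlrp2, which ranked 13 for Nlrp5.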

How the data were processed

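Both tables hold counts of reads per gene, not normalised, as deposited by the authors; the columns are those of featureCounts, per the file headers. For build mm9 the submitters' processing notes list, in no stated order, STAR 2.5.2b, HISAT2 2.1.0, featureCounts 2.0.1, fastp 0.21.0 and cutadapt 1.15. The tool behind each table, its strand setting and its treatment of reads matching more than 1 gene were not given in the sources used here. Members in the second table, which lists identifiers only, were found by exons identical to those of the first.

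The test was edgeR 4.0.16 under R 4.3.3, with filterByExpr (minimum count 10), TMM factors, quasi-likelihood test, and p-values adjusted by Benjamini-Hochberg across every tested gene (called under 0.05). An SE was taken as the size of the log2 fold change divided by the root of its F statistic. The fit was also run on simulated counts, with the same dispersion for every gene and few genes changed. That setting differs from the data and left out the DRB term, so no conclusion is drawn from it. Libraries under 200000 counts were left out. Alternatives were library size alone, no filter, DESeq2 1.42.0, leaving out each library, the shallow libraries and a replicate block. The members, gene lists, named-gene rule (members, partners, the 2 called genes with the smallest p of other lists, and the 3 most correlated genes per member) and tests were chosen with earlier results of these data known. Granulosa markers were also named outside that rule. The other assays were not analysed here. Replicate libraries differed by more than counting noise in all pairs compared, so none was treated as the same library sequenced again. That check cannot tell technical from biological replicates.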

Additional observations from a re-analysis of the deposited data

Results flagged for a closer look

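The sko change of Nlrp5 differed between the 2 genotype experiments by -1.20 on the log2 scale (second experiment minus growing; edgeR adjusted p = 0.00405 for the difference itself). Nlrp5 was higher in all 3 growing sko libraries than in their controls (log2 fold change 0.91), and was not called in the second experiment (-0.26, adjusted p = 0.127).

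The sko change of Nlrp2 differed by -0.74 (edgeR adjusted p = 0.0303 for the difference), from 0.29 in growing libraries, not called, to -0.42 in the second experiment. The difference lost its call in 9 of 16 alternatives, among them the fit without the DRB libraries. The call in the second experiment itself was lost without c_DRB replicate 3.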

How the results depend on the processing

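Of 468 alternative values for the 42 pairs of member and comparison, 435 kept direction and side of the threshold, 13 lost the call, 18 gained one and 2 turned direction. The 2 that turned were Nlrp5 (0.57) and Nlrp2 (0.27) in GV_C against growing control with library size alone. The number of members called was 3 in growing sko, and 4 with library size alone, and it was 6 after cPDS in every alternative run. Without each library in turn it was 3 in growing sko, 6 after cPDS, 0 for DRB and 5 to 6 for GV_C against growing control. For sko in the second experiment the number moved from 3 to 5 without a filter and to 1 with the 2 shallow libraries, and was 2 to 3 without each library in turn. For DRB it was 2 with DESeq2. For Trim21 it moved from 0 to 2 without a filter and was 0 to 3 without each library in turn. For the difference of the sko changes it was 1 to 3 without each library in turn and 1 without the DRB libraries, where fewer libraries enter. The causes of the other moves were not tested. There Nlrp2 was not called without growing control replicate 2 or 3, growing sko replicate 4, 5 or 6, c_DRB replicate 3, or rhau_sko_DRB replicate 7 or 8.

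Samples with the same replicate number did not deviate together: the correlations of their deviations were -0.06, -0.03 and -0.04 for cPDS and 0.07, 0.09 and -0.05 for Trim21, so the numbers were not taken as pairs. No cPDS number and 2 of 3 Trim21 numbers matched best with themselves. With the replicate block, 6 members were called after cPDS and 2 with Trim21 (Padi6 at 0.28, adjusted p = 0.0324, and Zbed3 at -0.29, adjusted p = 0.0285), and Uhrf1 was not called after cPDS (adjusted p = 0.0626). The groups c_DRB and rhau_sko have 1 deep library each and were taken to vary like the other groups.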

Other observations

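Of 17 tested relatives (mainly other NLRP, TLE, PADI, ZBED and KHDC1 genes), 6 were higher and 4 lower in growing sko libraries, a share near that of all genes (28.5% higher and 25.2% lower). The smallest p-values were those of Nlrp4c (1.80 ± 0.14) and Khdc1b (-0.82 ± 0.14). After cPDS, 10 of 21 were higher and 4 lower, beside 23.4% and 27.4% of all genes, with Khdc1b at -1.85 ± 0.07 and Nlrp4a at 0.57 ± 0.06. Near-identical copies in the NLRP and KHDC1 families leave single values uncertain, since it is not known how shared reads were counted.

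The 2 nearest tested genes on each side of a member, called neighbours here, were looked up after the members' values had been seen. Many are not close. Those of Padi6 lay 3222 to 68350 bases away and those of Tle6 59 to 47998. Those of Ooep lay 7932 to 69140 bases away and those of Zbed3 12842 to 301923. Neighbours of Nlrp2 lay 77144 to 694126 bases away and those of Nlrp5 23619 to 1099903. After cPDS all 4 neighbours of Padi6 (Padi4, Gm13032, Rcc2 and Arhgef10l) were called lower by edgeR, at -1.10 ± 0.17, -1.99 ± 0.24, -0.75 ± 0.12 and -2.29 ± 0.54, and so were all 4 of Tle6. Beside Nlrp2, which fell, 2 of 4 neighbours were higher and none lower, beside Nlrp5, which fell, 1 was higher and 1 lower, and beside Zbed3, which rose, none was higher and 2 were lower. Beside Ooep, which rose, 3 were higher. Of all genes, 27.4% were called lower and 23.4% higher after cPDS. In growing sko, 3 of 4 neighbours of Zbed3, itself not called, were higher, and none of Tle6, which fell, was called. Padi6, not called, had 1 lower neighbour, and Nlrp5, which rose, had 2 higher. Ooep and Nlrp2 each had 1 higher and 1 lower. The shares of all genes there were 28.5% higher and 25.2% lower. In the second experiment Padi4 (-1.60 ± 0.33) and Gm13032 (-1.88 ± 0.67) were called lower, and the call of Padi4 was lost without c_DRB replicate 3 (-1.30, edgeR adjusted p = 0.104) and within the libraries without DRB (-1.30, edgeR adjusted p = 0.0827). Elsewhere in that experiment, 2 neighbours of Zbed3 were higher, 1 of Ooep and 1 of Nlrp2 lower, and none of Tle6 or Nlrp5 was called. The shares of all genes were 16.8% lower and 19.2% higher. Alternatives were not run for Gm13032, Rcc2 and Arhgef10l.

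Gm5065, which overlaps the span of Nlrp2 on the other strand, was at 0.41 ± 0.15 in growing sko (edgeR adjusted p = 0.0241) and 0.52 ± 0.11 with Trim21 (adjusted p = 0.0101), where Nlrp2 was at 0.29 and 0.16 and not called. After cPDS it was at -0.03 ± 0.07, where Nlrp2 was at -0.60. Snora47, within the span of Zbed3, was at -2.90 ± 0.22 with Trim21 (edgeR adjusted p = 5.80e-06), where Zbed3 was at -0.29 and not called.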
